A study of Mus musculus with 12 samples.

Results

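Chemokines are small secreted proteins that steer migrating cells, and their receptors are the G protein-coupled receptors that read them. The set described here holds every gene whose mouse symbol is Ccl, Cxcl, Ccr or Cxcr followed by a number and at most 1 letter, together with Cx3cl1, Cx3cr1, Xcl1 and Xcr1. This rule took 56 of the 57180 genes in the deposited table, of which 38 encode ligands and 18 encode receptors. The rule reads names only and no measured value.

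The study compared mice treated with CCl4 (carbon tetrachloride, a liver-toxic solvent) with mice given vehicle, in liver and in CX3CR1+ cells of dorsal skin, with 3 libraries in each of the 4 groups. Its title concerns midkine, a secreted growth factor, and itch evoked by light touch. The liver groups were C57 mice given CCl4 or vehicle and were sequenced as bulk RNA; the design text speaks of hepatocytes and the sample labels of liver, and the material is called liver here. The skin groups were Cx3cr1-creER:Ai9 mice given CCl4 or vehicle, in which a tamoxifen-dependent Cre recombinase driven by the Cx3cr1 locus switches on a red reporter, and their cells were sequenced by smart-seq, which amplifies whole transcripts from few cells. A reporter of this kind marks cells that carried Cre activity when tamoxifen was given, together with their descendants. Dose, time after injection, sex, age, tamoxifen schedule and the number of skin cells per library are not stated in the labels or design text.

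Chemokines are sorted by the spacing of their first cysteines into CC (Ccl), CXC (Cxcl), CX3C (Cx3cl1) and XC (Xcl1) ligands, and most receptors bind several ligands of 1 class. Inflammatory members such as Ccl2 and Cxcl1 are induced in injured tissue and draw monocytes through Ccr2 and neutrophils through Cxcr2, while homeostatic members such as Cxcl12 and Ccl27a are made in resting tissue and place cells within it. In injured liver, hepatocytes, Kupffer cells, endothelium and stellate cells are all known sources, and in skin, keratinocytes and resident macrophages are.

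The promoters of 4 CXC ligand genes are shown because they hold 2 contrasts of the liver data: Cxcl1 and Cxcl2 are direct neighbours on chromosome 5, and Cxcl9 and Cxcl10 lie with 1 coding gene between them yet were called in opposite directions. Each sequence runs 5′ to 3′ on the gene's own strand, from 250 bases before to 50 bases after the RefSeq transcript start (GRCm38.p6). Capitals mark matches on either strand to the NF-kB consensus, to the AP-1 motif TGANTCA or to the core of the interferon-stimulated response element (ISRE).
Cxcl1, chr5:90890995-90891294, plus strand: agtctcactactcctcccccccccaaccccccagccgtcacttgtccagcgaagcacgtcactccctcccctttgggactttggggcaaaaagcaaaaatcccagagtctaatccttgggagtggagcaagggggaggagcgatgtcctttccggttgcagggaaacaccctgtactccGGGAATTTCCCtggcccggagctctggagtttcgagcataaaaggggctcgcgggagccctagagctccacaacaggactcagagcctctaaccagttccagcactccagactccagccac
Cxcl2, chr5:90903649-90903948, plus strand: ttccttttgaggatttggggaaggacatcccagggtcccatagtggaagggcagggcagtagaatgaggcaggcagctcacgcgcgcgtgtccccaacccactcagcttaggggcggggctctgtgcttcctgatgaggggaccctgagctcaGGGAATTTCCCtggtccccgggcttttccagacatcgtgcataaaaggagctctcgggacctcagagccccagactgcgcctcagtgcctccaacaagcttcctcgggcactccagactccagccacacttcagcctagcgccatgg
Cxcl9, chr5:92328030-92328329, minus strand: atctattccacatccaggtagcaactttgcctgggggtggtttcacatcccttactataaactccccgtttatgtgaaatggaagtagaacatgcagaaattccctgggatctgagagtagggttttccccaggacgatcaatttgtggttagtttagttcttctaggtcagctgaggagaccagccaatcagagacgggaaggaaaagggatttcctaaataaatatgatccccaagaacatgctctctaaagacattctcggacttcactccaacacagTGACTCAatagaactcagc
Cxcl10, chr5:92348840-92349139, minus strand: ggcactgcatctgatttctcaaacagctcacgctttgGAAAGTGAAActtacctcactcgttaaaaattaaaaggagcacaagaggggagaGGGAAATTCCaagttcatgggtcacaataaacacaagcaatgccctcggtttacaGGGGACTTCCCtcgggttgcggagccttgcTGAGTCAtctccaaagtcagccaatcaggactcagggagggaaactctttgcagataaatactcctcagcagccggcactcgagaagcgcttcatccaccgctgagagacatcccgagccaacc

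In the Cxcl1 promoter, 2 overlapping NF-kB matches began 71 and 70 bases upstream of the start, and in the Cxcl2 promoter the same 11 letters carried overlapping matches at 97 and 96 bases. The Cxcl10 promoter held NF-kB matches 159, 104 and 103 bases upstream, the last pair overlapping, an AP-1 match at 74 bases and an ISRE match at 213 bases. In the Cxcl9 window the only match was to AP-1, downstream of the start. RefSeq promoters were found for 41 of the 56 genes (48 promoters, some genes having several). The NF-kB consensus stood in 11 of these 48 promoters (22.9%) and in 2779 of all 32851 promoters (8.46%), the AP-1 motif in 9 of 48 (18.8%, against 7.81%) and the ISRE core in 3 of 48 (6.25%, against 3.44%). A match describes letters in a window and no binding was measured.

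All levels below are TPM (transcript abundance scaled for transcript length and to a common library total), and a value of 0 is written as listed at 0 because TPM keeps no read depth. Changes are CCl4 minus vehicle in log2(TPM + 1), a scale that shrinks the changes of weakly expressed genes, with limma's standard error (SE). In liver, mitochondrially encoded genes and their near copies took 25.7 to 28.4% of vehicle libraries and 68.1 to 82.1% of CCl4 libraries. Because TPM has a fixed sum, this lowered the deposited values of other genes, and the median change of all 10385 genes tested in liver was -0.59. A second value is therefore given for liver where the direction turned on it, from TPM rescaled without those genes, where the median change was 0.90. In skin, the third CCl4 library stood apart: it was the lowest library for 31 of the 44 chemokine and receptor genes tested (70.5%), against 21.7% of all genes tested, and its macrophage markers summed to 324 TPM against 8296 to 25701 TPM in the other 5. Cx3cr1, whose locus drives the Cre recombinase, was low in the skin cells, at 3.91, 0.27 and 0.91 TPM with vehicle and 5.28, 0 and 0.28 TPM with CCl4. The CX3CR1+ name is the study's and was not read from this transcript, and the reason for the low level was not tested.

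In CCl4-treated liver, Ccl2, Cxcl2, Ccl6, Cxcl10 and further ligands rose, while the deposited values of Cxcl9, Cxcl12, Ccl25 and Ccl27a were lower. Of the 56 genes, 19 reached a TPM of 1 in at least 3 of the 6 libraries and were tested (17 ligands and 2 receptors). Of these, 13 were higher with CCl4 (11 ligands and 2 receptors, among them Cxcr4), 4 ligands were lower and 2 ligands were not called. Over all genes tested, 10.3% were higher and 51.1% lower (1073 and 5304 genes, against 1895 and 2674 of 10282 with median-ratio scaling). Of the 19 genes, 10 had no vehicle library at 1 TPM and passed through the CCl4 libraries alone, so they had to differ, and their count is no measure of how the family as a whole moved. The number of genes at 1 TPM or above was 8 to 9 in vehicle libraries and 19 to 27 in CCl4 libraries (exact permutation p = 0.1, the smallest that 3 against 3 libraries can give). Fewer cells of a type and less RNA per cell cannot be told apart in these bulk samples.

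**Figure D1:**
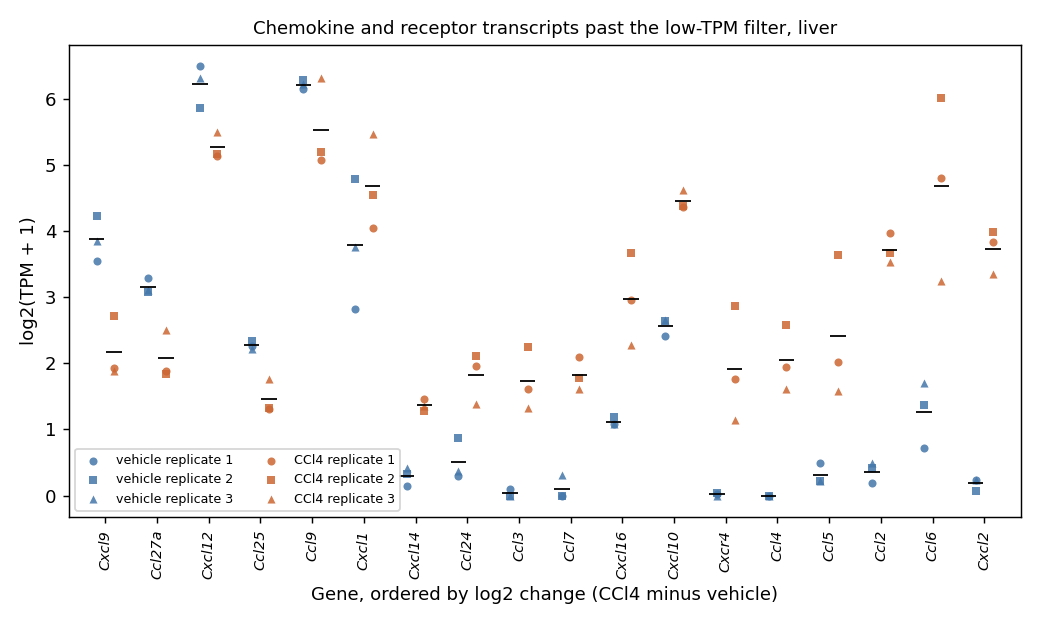
Level in log2(TPM + 1) of 18 of the 19 genes tested in liver, ordered by change, with vehicle in blue and CCl4 in orange, 1 symbol per replicate and a black bar for the group mean. Cxcl2 and Ccl2 rose from under 1 TPM in every vehicle library to 9.22 TPM or more in every CCl4 library, while the vehicle and CCl4 values of Cxcl1 and Ccl9 overlapped.

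The ligands of the monocyte receptor Ccr2 were among the strongest changes. Ccl2, the main monocyte attractant, stood at 0.14, 0.33 and 0.40 TPM with vehicle and 14.6, 11.7 and 10.5 TPM after CCl4. The groups were far apart, and the change was 3.36 ± 0.20 (adjusted p = 1.09e-06). Ccl7, its direct neighbour on the chromosome and a ligand of the same receptor, was listed at 0, 0 and 0.24 TPM with vehicle and 3.29, 2.43 and 2.04 TPM with CCl4 (1.72 ± 0.19, adjusted p = 8.21e-05). Ccr2 itself did not reach the filter: it read 0, 0.15 and 0.05 TPM with vehicle and 0.65, 4.24 and 0.13 TPM with CCl4. Its groups overlapped, with only the second CCl4 library clearly above 1 TPM (exact permutation p = 0.2). Ccl12, a further Ccr2 ligand in the same chromosomal run, was listed at 0 in every vehicle library and reached at most 0.81 TPM with CCl4, and Ccl8 at most 0.75 TPM.

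The ligands Ccl3, Ccl4 and Ccl5, which attract macrophages, monocytes and T cells, also rose. Ccl3 went from 0.07, 0 and 0 TPM to 2.05, 3.76 and 1.5 TPM (1.69 ± 0.23, adjusted p = 0.000228). Ccl4 was listed at 0 with vehicle and stood at 2.85, 4.97 and 2.06 TPM with CCl4 (adjusted p = 8.99e-05), so no fold is given for it. Ccl5 went from 0.41, 0.16 and 0.16 TPM to 3.06, 11.4 and 1.99 TPM (2.10 ± 0.41, adjusted p = 0.00139). In all 3 genes every CCl4 library lay above every vehicle library, with the second CCl4 library highest. Ccr1, a receptor of Ccl3 and Ccl5, missed the filter at 0, 0.04 and 0.02 TPM with vehicle and 1.09, 3.93 and 0.57 TPM with CCl4, without overlap (exact permutation p = 0.1).

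Ccl6 and Ccl9 are rodent ligands of Ccr1 that lie side by side on the chromosome, and they moved differently. Ccl6 rose from 0.65, 1.59 and 2.24 TPM to 26.9, 63.2 and 8.49 TPM, a change of 3.42 ± 0.54 (adjusted p = 0.000505). Its CCl4 libraries differed widely among themselves, yet the lowest of them lay above every vehicle library. Ccl9 stood at 69.7, 76.8 and 73.7 TPM with vehicle, level with Cxcl12 as the most abundant chemokine transcript of vehicle liver. With CCl4 it read 32.6, 35.8 and 78.4 TPM, so that the third library lay above all vehicle libraries, and it was not called (-0.69 ± 0.36, adjusted p = 0.111). Without that library Ccl9 was called lower at -1.08, and with rescaled TPM it was higher at 1.00 (adjusted p = 0.00155).

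Among the Cxcr2 ligands, which draw neutrophils, Cxcl2 rose and Cxcl1 varied within both groups. Cxcl2 went from 0.18, 0.05 and 0.18 TPM to 13.2, 14.8 and 9.22 TPM (3.54 ± 0.21, adjusted p = 1.09e-06). Its neighbour Cxcl1, whose promoter carries the same 11-letter NF-kB match, read 6.04, 26.5 and 12.5 TPM with vehicle and 15.5, 22.3 and 43.2 TPM with CCl4. The groups overlapped and Cxcl1 was not called (0.90 ± 0.48, adjusted p = 0.120), although it was called higher without the second vehicle library (1.40, adjusted p = 0.0169). Cxcl1 was also called higher in rescaled TPM (2.59, adjusted p = 0.00250), with median-ratio scaling (1.48, adjusted p = 0.0311) and with a replicate block (adjusted p = 0.0137). Cxcl3 and Cxcl5 were listed at 0 in all vehicle libraries and stood at 0.73, 0.97 and 0.32 TPM and at 0.47, 1.19 and 0.19 TPM with CCl4. The receptor Cxcr2 read 0.09, 0.05 and 0.02 TPM with vehicle and 0.70, 2.56 and 0.21 TPM with CCl4, without overlap but below the filter (exact permutation p = 0.1).

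The 3 ligands of Cxcr3, the receptor of activated T and NK cells, did not move together. Cxcl10 rose from 4.35, 5.23 and 5.30 TPM to 19.7, 19.9 and 23.7 TPM, with little spread within either group (1.89 ± 0.23, adjusted p = 0.000121). Cxcl9, an interferon-gamma target, fell from 10.7, 17.8 and 13.5 TPM to 2.82, 5.54 and 2.70 TPM, without overlap (-1.70 ± 0.28, adjusted p = 0.000648). In rescaled TPM the Cxcl9 change was -0.24 and was not called, while Cxcl10 stayed higher at 3.61. The order of both genes was thus exchanged: Cxcl9 lay above Cxcl10 in every vehicle library and below it in every CCl4 library. Cxcl11, a pseudogene in the RefSeq table, read 0.48, 0.75 and 0.58 TPM with vehicle and 0.23, 1.13 and 0.79 TPM with CCl4. The receptor Cxcr3 did not exceed 0.20 TPM in any liver library.

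Cxcl12, the homeostatic ligand made by stromal and endothelial cells, and its receptor Cxcr4 were called in opposite directions in the deposited values. Cxcl12 went from 89.2, 57.0 and 78.6 TPM to 34.2, 35.0 and 44.2 TPM (-0.95 ± 0.30, adjusted p = 0.0165), but in rescaled TPM it was higher by 0.73 (adjusted p = 0.0170). The Cxcl12 call also ended with median-ratio scaling (-0.35, adjusted p = 0.251), and without the first (-0.82) or the third vehicle library (-0.91). Cxcr4 rose from 0.02, 0.03 and 0 TPM to 2.38, 6.31 and 1.20 TPM (1.90 ± 0.34, adjusted p = 0.000948) and was the most abundant receptor in each CCl4 liver library. Its level was highest in the second CCl4 library.

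Further ligands rose from low levels. Cxcl16, a membrane-bound ligand and scavenger receptor, went from 1.12, 1.28 and 1.12 TPM to 6.78, 11.7 and 3.87 TPM (1.85 ± 0.29, adjusted p = 0.000524). Its receptor Cxcr6, found on NKT and resident T cells, stayed at or below 0.96 TPM in every liver library. Ccl24, an eosinophil attractant that acts through Ccr3, went from 0.23, 0.82 and 0.29 TPM to 2.89, 3.34 and 1.62 TPM (1.31 ± 0.23, adjusted p = 0.000927). Ccr3 itself did not pass 0.38 TPM. Cxcl14, a homeostatic CXC ligand of epithelia, went from 0.10, 0.26 and 0.34 TPM to 1.75, 1.43 and 1.56 TPM (1.07 ± 0.17, adjusted p = 0.000532).

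The deposited values of Ccl25 and Ccl27a were lower with CCl4, and those in rescaled TPM were not. Ccl25, the ligand of the gut-homing receptor Ccr9, read 3.79, 4.05 and 3.65 TPM with vehicle and 1.49, 1.5 and 2.38 TPM with CCl4 (-0.81 ± 0.19, adjusted p = 0.00449). Ccl27a, best known as a skin chemokine for Ccr10, read 8.74, 7.46 and 7.59 TPM with vehicle and 2.69, 2.56 and 4.68 TPM with CCl4 (-1.08 ± 0.23, adjusted p = 0.00239). In rescaled TPM both signs turned, to 0.50 for Ccl25 (adjusted p = 0.0262) and 0.37 for Ccl27a (adjusted p = 0.0714). Mouse Ccl27a has the near-identical copy Ccl27b, which was listed at 0 in every liver library, and reads of the pair may be divided uncertainly. Ccr9 stayed at or below 0.53 TPM and Ccr10 at or below 0.05 TPM.

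**Figure D2:**
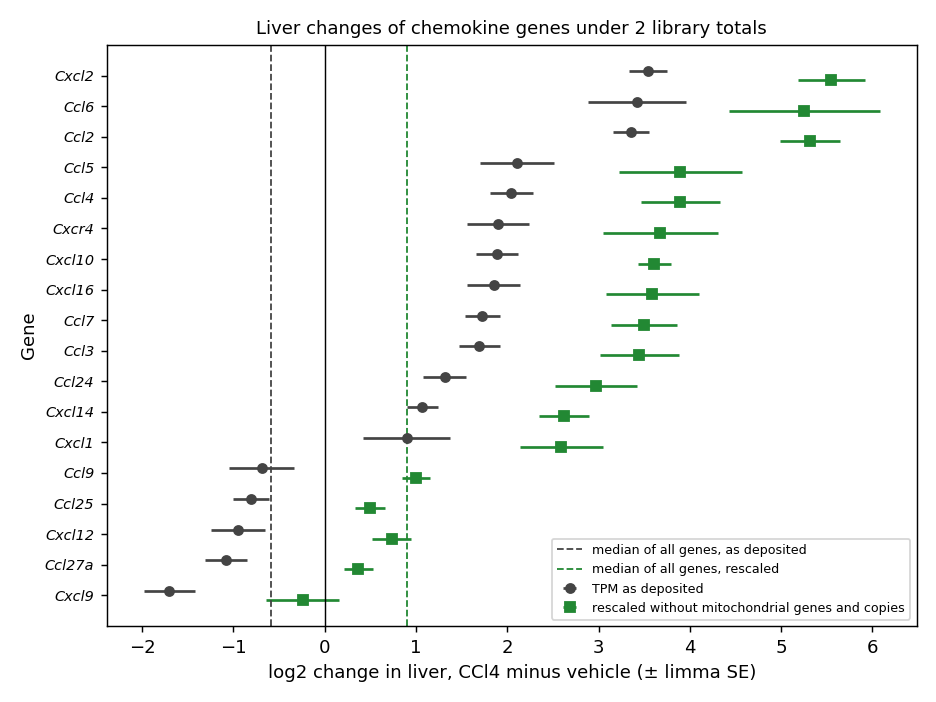
Change in liver, in log2(TPM + 1) with limma SE, of 18 of the 19 genes tested, from deposited TPM (grey circles) and from TPM rescaled without mitochondrial genes and copies (green squares), with dashed lines at the median of all genes tested. Ccl9, Ccl25, Cxcl12 and Ccl27a lie left of 0 with deposited TPM and right of 0 after rescaling, Cxcl9 stays left of 0, and the 12 genes drawn that were called higher stay right of both medians.

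After rescaling, 12582 genes were tested, 67.8% of them higher with CCl4, and 22 of the 24 chemokine and receptor genes then tested were higher and none lower. Those without a vehicle library at 1 TPM again had to differ. The deposited sum over all 38 ligands barely differed between the groups, at 196.2, 200.7 and 201.0 TPM with vehicle and 191.0, 260.8 and 244.8 TPM with CCl4 (exact permutation p = 0.4). In rescaled units the sum was 272 ± 1.96 with vehicle and 1052 ± 277 with CCl4 (mean ± SD, n = 3, exact permutation p = 0.1). The mix of ligands also moved. Cxcl12 or Ccl9 led every vehicle library with 38.3 to 45.4% of the ligand sum, and the leading ligand of the CCl4 libraries (Cxcl12, Ccl6 and Ccl9 in turn) held 17.9 to 32.0%. The receptor sum went from 0.37, 1.13 and 0.59 TPM to 7.88, 26.6 and 3.92 TPM (exact permutation p = 0.1).

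Of the 37 genes not tested in liver, 29 never reached 1 TPM in a library and 7 of the 56 were listed at 0 in all 6 (Ccl1, Ccl21b, Ccl26, Ccl27b, Cxcl15, Cxcl17 and Ccr8). Those that reached 1 TPM in some library and were not yet named were Ccl19, Cxcl13 and Cx3cr1. Ccl19, which guides dendritic and T cells through Ccr7, read 0, 0.12 and 0 TPM with vehicle and 0.82, 1.39 and 0.81 TPM with CCl4. Cxcl13, the B cell attractant, read 0.30, 0.36 and 0.35 TPM and 0.74, 1.90 and 0.31 TPM. Cx3cr1, the fractalkine receptor, read 0.01, 0.01 and 0 TPM and 0.45, 2.06 and 0.44 TPM, without overlap (exact permutation p = 0.1). Its ligand Cx3cl1 did not pass 0.41 TPM.

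Of 39 known ligand and receptor pairs among the 56 genes, none had both partners at 1 TPM in all 3 vehicle liver libraries. Cxcr4 and Cxcl12 were both at 1 TPM or above in all 3 CCl4 libraries, the receptor called higher and the ligand lower in the deposited values. For 25 pairs no liver library held both partners at 1 TPM. Levels of both partners in a tissue extract do not show which cells carry them.

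Along the chromosome, by the order of RefSeq genes, the members that rose in liver in deposited TPM lay partly in runs. In the run Ccl5, Ccl9, Ccl6, Ccl3 and Ccl4, every gene but Ccl9 rose. In the run Ccl2, Ccl7, Ccl11, Ccl12, Ccl8 and Ccl1, the first pair rose and the other genes stayed below 1 TPM. In the run Cxcl3, Cxcl15, Cxcl1 and Cxcl2, only Cxcl2 was called. In rescaled TPM Ccl9 (1.00, adjusted p = 0.00155), Cxcl1 (2.59, adjusted p = 0.00250) and Cxcl3 (1.97, adjusted p = 0.00450) were called higher too. Cxcl3 was listed at 0 in every vehicle library and passed through the CCl4 libraries alone, so it had to differ. In deposited TPM the same held for Ccl2, Ccl3, Ccl4, Ccl5, Ccl7 and Cxcl2, which had no vehicle library at 1 TPM.

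Markers of other cell types moved with these changes in liver, and their part in them was not tested. All 12 Kupffer cell markers were higher, with a summed level of 30.3 to 79.7 TPM with vehicle and 131 to 341 TPM with CCl4. Neutrophil markers summed to 0.07 to 0.87 TPM with vehicle and 33.9 to 357 TPM with CCl4, and the 4 of 12 that were tested were higher. These 4 had no vehicle library at 1 TPM and passed through the CCl4 libraries alone, so they had to differ. Of the monocyte and macrophage markers, 10 of 12 were tested, of which 9 were higher and 1 lower (all 12 were tested and higher in rescaled TPM), while the sum overlapped between groups (222 to 259 and 213 to 366 TPM). That overlap rested on Fn1, the marker called lower, which gave 213 to 244 TPM with vehicle and 85.6 to 163 TPM with CCl4. No other marker of this list passed 5.12 TPM in a vehicle library. The 10 endothelial markers were all higher (30.7 to 38.8 against 185 to 608 TPM), as were the 8 of 11 stellate cell and fibroblast markers that were tested (8.87 to 12.7 against 96.4 to 205 TPM). Of these 8, Lrat, Col1a1, Col1a2, Col3a1 and Lum also passed through the CCl4 libraries alone. So did Chil3, S100a4, Gpnmb, Trem2 and Cd14 among the monocyte and macrophage markers. T cell, NK cell and B cell markers stayed low, at 0.69 to 1.52, 0.25 to 0.88 and 0.04 to 0.09 TPM with vehicle and 2.11 to 17.3, 0.76 to 12.4 and 0.86 to 12.3 TPM with CCl4, and none was tested. Of 10 hepatocyte markers 9 were lower (67002 to 74248 against 14476 to 32606 TPM), but in rescaled TPM 5 were lower, 2 higher and 3 not called, and their sums overlapped (93562 to 100232 against 80662 to 102240). Red blood cell markers were high in the second CCl4 library alone, at 867 TPM against 11.6 to 65.4 TPM in the other 5. That library also had the highest neutrophil, T cell, NK cell and B cell sums and was the highest library for 9 of the 19 genes tested; without it, 13 chemokine and receptor genes were still higher and 4 lower.

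Cholangiocyte markers summed to 1.49 to 1.87 TPM with vehicle and 5.2 to 6.52 TPM with CCl4, and dendritic cell markers to 1.21 to 1.75 and 4.73 to 17.1 TPM, with 1 gene of each tested and higher. The dendritic cell gene, Irf8, had no vehicle library at 1 TPM and so had to differ. No marker of any list was listed at 0 in all 6 libraries of its tissue.

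Genes that shape or transmit chemokine signals were read from 2 lists. Of 10 other ligands and atypical receptors, 6 were tested in liver: Ackr1, Ccrl2 and Pf4 rose, Mif was lower and 2 were not called, with a median change of 0.86 against -0.59 for all genes tested. Ackr1, an endothelial receptor that binds chemokines without signalling, went from 0.13, 0.05 and 0.10 TPM to 3.68, 6.09 and 2.25 TPM (2.12 ± 0.25, adjusted p = 0.000117). Pf4, a platelet and macrophage CXC chemokine, went from 0, 0.84 and 1.13 TPM to 2.39, 8.28 and 1.35 TPM (1.41 ± 0.43, adjusted p = 0.0154). Mif, a cytokine that binds Cxcr4, read 126, 111 and 131 TPM with vehicle and 32.7, 27.1 and 65.8 TPM with CCl4 (-1.63 ± 0.36, adjusted p = 0.00265), but in rescaled TPM its groups overlapped and it was not called (0.05 ± 0.18, adjusted p = 0.794). In rescaled TPM 9 genes of this list were tested, 8 of them higher and 0 lower, where 67.8% of all 12582 genes were higher. Ackr1 had no vehicle library at 1 TPM on either scale, nor had Ackr3, Ackr4 and Cmklr1 in rescaled TPM, so these had to differ. Of 40 genes of signalling below the receptors, 24 were tested, of which 9 were higher, 3 lower and 12 not called, with a median change of 0.32. In rescaled TPM 33 of 34 were higher and 0 lower, against the same 67.8% of all genes. Some of those tested also passed through the CCl4 libraries alone, among them Rac2 on both scales and Rgs19, Was, Fgr, Vav1 and Tiam1 in rescaled TPM. Rgs1, which shuts off the G proteins of chemokine receptors in leukocytes, rose from 1.68, 1.53 and 0.88 TPM to 23.5, 41.0 and 15.0 TPM (3.45 ± 0.32, adjusted p = 3.39e-05), and Rac2, a leukocyte GTPase for migration, by 1.65 ± 0.34 (adjusted p = 0.00187).

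In skin CX3CR1+ cells, no chemokine or receptor gene was called as differing between CCl4 and vehicle. Of the 56 genes, 44 were tested (32 ligands and 12 receptors) and limma called 0, as it called 0% of all 13767 genes, of which 288 had an unadjusted p under 0.05. The adjusted p was 0.999903 for each of the 44 genes, and 3 had an unadjusted limma p under 0.05, namely Ccr2 (0.00746), Cxcr3 (0.0254) and Ccl6 (0.0296). The change lay below 0 for 36 genes and above 0 for 8, with a median of -0.91 against -0.05 for all genes tested. Without the third CCl4 library the split was 25 below and 19 above, the median was -0.17, 11 genes changed sign and 32 moved by more than 1.5 times. Each skin change below is therefore followed by its value without that library.

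**Figure D3:**
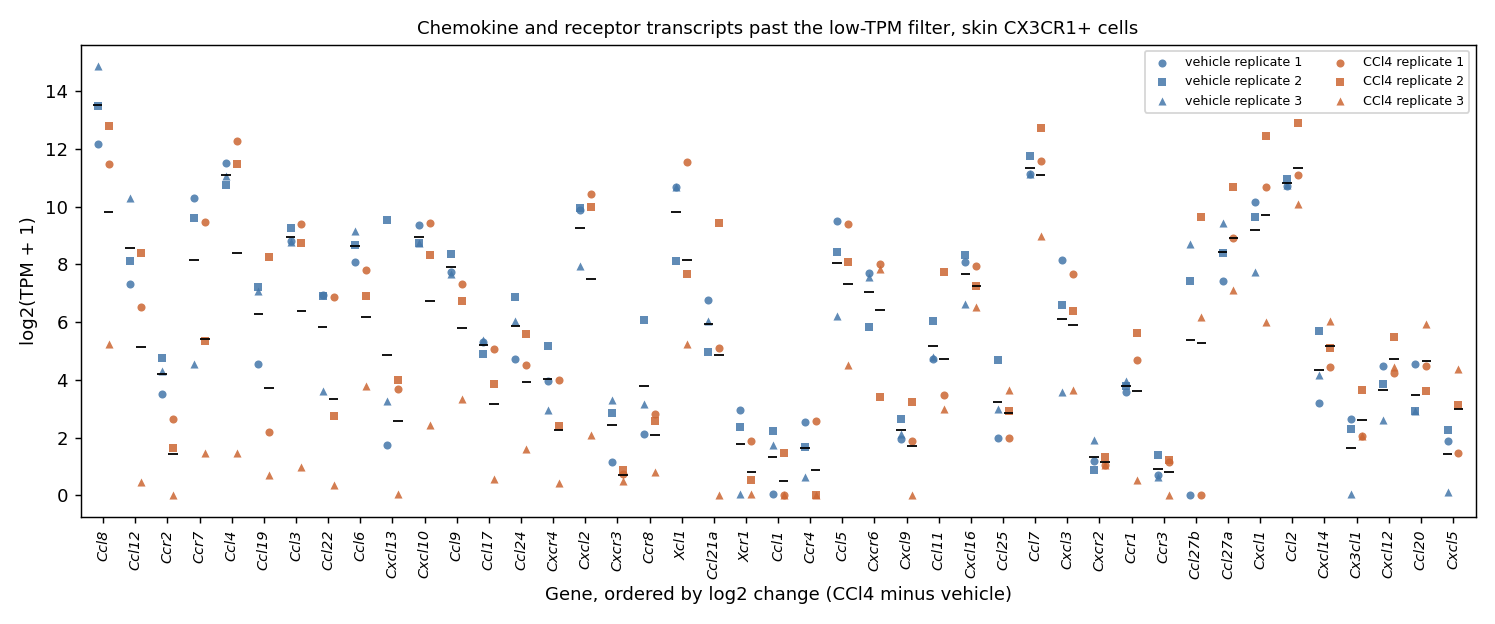
Level in log2(TPM + 1) of 43 of the 44 genes tested in skin CX3CR1+ cells, ordered by change, with vehicle in blue and CCl4 in orange, 1 symbol per replicate and a black bar for the group mean. The third CCl4 library (orange triangles) is the lowest library for 30 of the 43 genes drawn.

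The third CCl4 library was also the lowest skin library in the summed markers of macrophages, Langerhans cells and dendritic cells. So it was for NK cell, fibroblast, mast cell, keratinocyte, red blood cell, and Schwann cell and neuron markers. The next lowest sums were 1392 TPM for keratinocyte markers and 19.9 TPM for Schwann cell and neuron markers. T cell, B cell, endothelial and melanocyte sums of the third CCl4 library were not the lowest. Its neutrophil markers summed to 613 TPM, the highest of the CCl4 libraries, but S100a8 and S100a9 gave 291 and 288 TPM of this. The other neutrophil markers tested, Csf3r at 0.03 TPM and Il1r2 at 24.2 TPM, were at their lowest of all skin libraries there. Monocyte and macrophage markers of the third CCl4 library summed to 6495 TPM, against 7316 TPM or more in the other libraries. Macrophage markers summed to 10216, 20918 and 25701 TPM with vehicle and 8296, 10476 and 324 TPM with CCl4. Langerhans cell markers summed to 58974, 57138 and 50138 TPM with vehicle and 36413, 16207 and 790 TPM with CCl4, and dendritic cell markers to 752, 1162 and 812 TPM and to 495, 289 and 21.6 TPM. All CCl4 libraries were thus below all vehicle libraries in the Langerhans and dendritic cell sums, but none of those markers was called. T cell markers summed to 3183, 963 and 5436 TPM with vehicle and 3822, 905 and 2957 TPM with CCl4. Keratinocyte markers, at 1392, 3090 and 1437 TPM and at 2849, 3544 and 1145 TPM, were present in every library. Endothelial markers were high in the second CCl4 library alone, at 641 TPM against 23.0 to 77.01 TPM in the others. Schwann cell and neuron markers followed them, at 425 TPM against 19.2 to 61.5 TPM, and so did red blood cell markers, at 2793 TPM against 47.6 to 1413 TPM. Monocyte and macrophage markers summed to 7316 to 8981 TPM with vehicle and 6495 to 12609 TPM with CCl4, neutrophil markers to 221 to 778 and 253 to 613 TPM, and NK cell markers to 513 to 3904 and 286 to 1378 TPM. Fibroblast markers summed to 1626 to 6907 and 369 to 4425 TPM, mast cell markers to 55.8 to 369 and 13.2 to 321 TPM, B cell markers to 1.47 to 14.0 and 1.02 to 2.93 TPM, and melanocyte markers to 3.36 to 10.7 and 3.91 to 18.7 TPM. No marker of any of these lists was called in skin, and the part of these cells in the chemokine values was not tested.

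**Figure D4:**
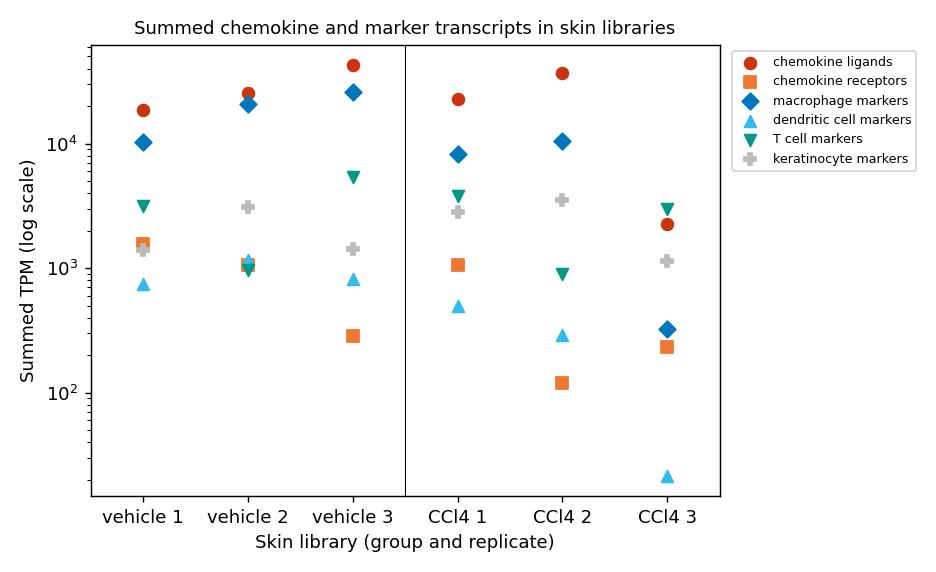
Summed TPM on a log axis, by skin library, of chemokine ligands, chemokine receptors and 4 marker lists. The third CCl4 library holds 2279 TPM of ligands against 18748 to 42582 TPM in the other 5 libraries, with macrophage markers at 324 TPM and T cell markers at 2957 TPM.

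Ligands of the CC class made up most of the chemokine transcripts in skin cells. Ccl8, a ligand of mouse Ccr8 made by resident skin macrophages, stood at 4607, 11475 and 29872 TPM with vehicle and 2828, 7064 and 36.7 TPM with CCl4. It was the most abundant chemokine transcript in each vehicle library, with 24.6, 45.2 and 70.2% of the ligand sum, and its lowest vehicle value lay above the highest of any other ligand's in that group. The change was -3.68 ± 1.66, or -1.38 ± 0.80 without the third CCl4 library, and the groups overlapped. Its receptor Ccr8 read 3.37, 66.0 and 7.95 TPM with vehicle and 6.08, 4.97 and 0.76 TPM with CCl4 (-1.71 ± 1.06, or -1.08 ± 1.15). Ccl1, the other Ccr8 ligand, read 0.04, 3.66 and 2.31 TPM and 0, 1.78 and 0 TPM.

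Of the Ccr2 ligands, Ccl2 and Ccl7 were at 507 TPM or above in every skin library. Ccl2 read 1664, 1987 and 1709 TPM with vehicle and 2174, 7546 and 1078 TPM with CCl4 (0.55 ± 0.69, or 1.18 ± 0.60). Ccl7 read 2259, 3459 and 2221 TPM and 3083, 6814 and 507 TPM (-0.23 ± 0.85, or 0.82 ± 0.52). Ccl12 read 158, 273 and 1242 TPM and 91.9, 334 and 0.36 TPM (-3.44 ± 1.75, or -1.10 ± 0.97). Ccl2 and Ccl7 were thus highest in the second CCl4 library, and Ccl12 in the third vehicle library. Ccr2, the receptor of inflammatory monocytes, had the lowest p of the 44 genes. It read 10.5, 26.1 and 18.6 TPM with vehicle and 5.25, 2.08 and 0 TPM with CCl4, without overlap (-2.77 ± 0.81, or -2.06 ± 0.75).

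Ccr2 was 1 of 4 tested genes whose CCl4 libraries all lay below the vehicle libraries, the others being Cxcr3, Ccl6 and Ccl9, and none lay wholly above. Among all genes tested, 2.72% lay wholly below and 2.56% wholly above. The untested Ccr6 also lay wholly below, at 0.62, 15.0 and 1.66 TPM with vehicle and 0.44, 0 and 0 TPM with CCl4. Ccl6 read 271, 405 and 565 TPM with vehicle and 225, 119 and 12.8 TPM with CCl4 (-2.46 ± 0.96, or -1.27 ± 0.60). Ccl9 read 214, 329 and 201 TPM and 159, 106 and 8.99 TPM (-2.13 ± 0.97, or -0.89 ± 0.56). Their receptor Ccr1 read 10.9, 12.8 and 14.6 TPM with vehicle and 24.7, 48.1 and 0.44 TPM with CCl4 (-0.17 ± 1.18, or 1.38 ± 0.66). In Ccr1 the first and second CCl4 libraries lay above all vehicle libraries and the third below.

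The same spread marked Ccl3, Ccl4 and Ccl5, which activated macrophages and T cells secrete. Ccl3 read 445, 609.9 and 431 TPM with vehicle and 676, 426 and 0.95 TPM with CCl4 (-2.57 ± 1.84, or 0.13 ± 0.52). Ccl4 read 2923, 1736 and 2126 TPM and 4925, 2847 and 1.77 TPM (-2.71 ± 2.33, or 0.76 ± 0.49). Ccl5 read 724, 342 and 73.0 TPM and 678, 267 and 22.0 TPM (-0.71 ± 1.24, or 0.69 ± 0.98). For Ccl3, Ccl4 and Ccl5 the sign turned when the third CCl4 library was left out.

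Among the neutrophil attractants, Cxcl1 read 1145, 794 and 214 TPM with vehicle and 1649, 5614 and 63.0 TPM with CCl4 (0.53 ± 1.42). Without the third CCl4 library the Cxcl1 change was 2.39 ± 0.85, with an unadjusted limma p of 0.0235 and an adjusted p of 0.999868. Its neighbour Cxcl2 read 934, 991 and 243 TPM and 1398, 1014 and 3.22 TPM (-1.75 ± 1.89, or 0.97 ± 0.71). In both genes the first and second CCl4 libraries lay above all vehicle libraries and the third below all of them. Cxcl3 read 281, 94.5 and 10.95 TPM and 203, 82.4 and 11.49 TPM (-0.20 ± 1.28, or 0.93 ± 1.25), and Cxcl5 2.70, 3.76 and 0.07 TPM and 1.73, 7.64 and 19.6 TPM. Their receptor Cxcr2 stayed between 0.82 and 2.74 TPM in all skin libraries, and Cxcr1 was listed at 0 in all of them.

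Of the Cxcr3 ligands, Cxcl10 was abundant in skin and Cxcl9 was not. Cxcl10 read 654, 423 and 423 TPM with vehicle and 690.1, 316 and 4.39 TPM with CCl4 (-2.21 ± 1.51, or -0.07 ± 0.57). Cxcl9 read 2.88, 5.29 and 3.39 TPM and 2.71, 8.40 and 0 TPM. Cxcr3 read 1.21, 6.23 and 8.74 TPM with vehicle and 0.65, 0.84 and 0.42 TPM with CCl4, without overlap (-1.72 ± 0.65, or -1.63 ± 0.77).

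By the median over the 6 skin libraries, Ccr7 and Cxcr6 were the most abundant receptors, although Ccr1 led the second CCl4 library. Ccr7, which takes mature dendritic cells to lymph nodes, read 1266, 774 and 22.6 TPM with vehicle and 707, 40.1 and 1.74 TPM with CCl4 (-2.73 ± 1.99, or -0.74 ± 1.82). Its ligand Ccl19 read 22.6, 148 and 133 TPM and 3.57, 301 and 0.63 TPM (-2.57 ± 1.70, or -1.07 ± 1.67), and Ccl21a, made by lymphatic endothelium, 109, 30.4 and 64.4 TPM and 33.04, 692 and 0 TPM. Ccl21a has near-identical copies, so its reads may be divided uncertainly, and its highest value came from the library with the most endothelial marker transcripts. Cxcr6 read 206, 56.2 and 187 TPM with vehicle and 258, 9.63 and 225 TPM with CCl4 (-0.61 ± 1.17, or -1.32 ± 1.30). In both groups the second library was its lowest, as it was for the T cell marker sum. Its ligand Cxcl16 read 267, 322 and 97.1 TPM and 242, 151 and 91.7 TPM (-0.44 ± 0.65, or -0.08 ± 0.69).

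Xcl1, made by T and NK cells, was the fifth most abundant ligand of vehicle skin cells. It read 1622, 274 and 1647 TPM with vehicle and 3014, 200.3 and 37.2 TPM with CCl4 (-1.66 ± 1.41, or -0.21 ± 1.23). Its receptor Xcr1, carried by cross-presenting dendritic cells, read 6.78, 4.19 and 0.02 TPM and 2.69, 0.43 and 0.02 TPM. The Ccr4 ligands of dendritic cells, Ccl17 and Ccl22, read 38.5, 28.7 and 41.0 TPM and 122, 119 and 11.3 TPM with vehicle. With CCl4, Ccl17 read 32.2, 13.3 and 0.49 TPM (-2.04 ± 1.05, or -0.75 ± 0.68) and Ccl22 117, 5.76 and 0.29 TPM (-2.49 ± 1.55, or -1.001 ± 1.43). Ccr4 read 4.85, 2.21 and 0.56 TPM and 4.99, 0 and 0 TPM.

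The eosinophil attractants Ccl11 and Ccl24 differed widely between libraries. Ccl11 read 25.1, 64.5 and 26.6 TPM with vehicle and 10.2, 212 and 6.93 TPM with CCl4 (-0.44 ± 1.16, or 0.44 ± 1.20). Ccl24 read 25.1, 114 and 65.3 TPM and 22.0, 47.1 and 2.06 TPM (-1.96 ± 1.04, or -0.81 ± 0.81). Their receptor Ccr3 did not pass 1.65 TPM. Cxcl13 was high in a single library, the second vehicle one, at 2.37, 739 and 8.58 TPM with vehicle and 11.96, 14.8 and 0.03 TPM with CCl4 (-2.27 ± 1.86, or -1.01 ± 2.02), and its receptor Cxcr5 reached at most 2.20 TPM.

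In some ligands known from keratinocytes and stroma the third CCl4 library was not low, but in Ccl27a it was. Ccl20, which draws Ccr6-bearing cells, read 22.3, 6.56 and 6.52 TPM with vehicle and 21.2, 11.1 and 59.8 TPM with CCl4 (1.21 ± 0.81, or 0.58 ± 0.81). Cxcl14 read 8.18, 50.2 and 16.9 TPM and 20.5, 33.3 and 64.2 TPM (0.84 ± 0.79, or 0.42 ± 0.86). For Cxcl5, Ccl20 and Cxcl14 that library was the highest of all 6. Cxcl12 read 21.1, 13.6 and 5.16 TPM and 17.6, 43.7 and 20.7 TPM (1.06 ± 0.72, or 1.20 ± 0.82), and Cxcr4 14.4, 35.0 and 6.68 TPM and 14.9, 4.32 and 0.33 TPM (-1.75 ± 1.00, or -0.82 ± 0.91). Ccl27a read 172, 332 and 697 TPM and 482, 1640 and 137 TPM (0.48 ± 0.90, or 1.38 ± 0.79), with the third CCl4 library the lowest of all 6. Its copy Ccl27b was listed at 0 in the first library of either group and at 72.0 to 789.6 TPM in the others. Ccl25 read 2.91, 24.9 and 6.89 TPM and 3, 6.61 and 11.7 TPM. Cx3cl1, the ligand of Cx3cr1, read 5.17, 3.91 and 0.02 TPM and 3.17, 11.7 and 3.14 TPM.

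The ligand sums of skin cells were 18748, 25379 and 42582 TPM with vehicle and 22819, 36743 and 2279 TPM with CCl4 (exact permutation p = 0.6), and the receptor sums 1557, 1053 and 286 TPM and 1053, 120 and 232 TPM (exact permutation p = 0.2). Neither differed beyond the spread between libraries. In the third CCl4 library Cxcr6 alone gave 225 of the 232 TPM of receptors. Both partners of a pair were at 1 TPM or above in all 3 vehicle libraries for 18 of the 39 pairs, and in all 3 CCl4 libraries for 5 pairs, namely Cxcr2 with Cxcl1, Cxcl2, Cxcl3 and Cxcl5, and Cxcr6 with Cxcl16. Only the pair of Cxcr6 and Cxcl16 was above 1 TPM in all 6. Of the genes not tested in skin, Ccl21b reached 4.99, Cxcl17 1.43 and Ccr9 2.00 TPM at most, Ccl26 was listed at 0 in all libraries, and Ccl28, Ccr10, Cxcl11 and Cxcl15 did not reach 1 TPM.

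All 10 other ligands and atypical receptors and all 40 signalling genes were tested in skin, and limma called 0 of each, with median changes of -0.47 and -0.85. By their mean over the 6 libraries, the most abundant of each list were Pf4, at 768, 2866 and 4130 TPM with vehicle and 753, 1367 and 146 TPM with CCl4, and Rgs1, at 4408, 915 and 454 TPM and 5897, 388 and 282 TPM. Rgs1 was highest in the first library of both groups. The first libraries also listed 28870 and 28357 genes above 0, against 21328 to 23494 in the other 4.

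The liver and skin effects were compared in 1 limma model of all 12 libraries. Of the 19 chemokine and receptor genes that passed in both tissues, 0 were called as differing between tissues, where 0.216% of 9255 genes were. Unadjusted limma p was under 0.05 for 9 of them, and for 1872 of all 9255 genes. The lowest adjusted p was that of Ccl6, which rose in liver and lay lower in skin: the liver effect minus the skin effect was 5.88 ± 1.27 (adjusted p = 0.0653). For Ccl2 the difference was 2.81 ± 0.77 (adjusted p = 0.0990), and for Cxcl12 -2.01 (adjusted p = 0.152). These differences include the third skin CCl4 library. Without it the median difference of the 19 genes went from 2.81 to 1.41, and the skin change of Ccl6 from -2.46 to -1.27. In that fit 0 of the 19 genes were called, and unadjusted limma p was under 0.05 for 13 of them and for 1628 of all genes. In rescaled TPM the difference was 7.73 for Ccl6, which was then called (adjusted p = 0.0109), and -0.32 for Cxcl12 (adjusted p = 0.771), whose liver change was then above 0 as in skin. Rescaling moved the median difference of all genes tested from -0.54 to 0.98. Tissue, strain and assay cannot be told apart in this comparison.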

How the data were processed

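Liver (bulk RNA-seq) and dorsal skin CX3CR1+ cells (smart-seq) were measured in 12 libraries, 3 per group. The authors deposited TPM values for 57180 genes; the submitters' processing notes name fastp, RSEM, HISAT2, StringTie and the build GRCm39, without versions or roles. The TPM values hold no depth, so no counting interval is given. Symbols were found for 51884 gene IDs, and each of the 56 symbols of the set matched 1 ID.

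Values were taken as log2(TPM + 1) and fitted per tissue with limma 3.58.1 (R 4.3.3; lmFit, eBayes with trend), two-sided, over genes at 1 TPM or above in 3 or more of 6 libraries. Calls are at a Benjamini-Hochberg adjusted p under 0.05 over all genes tested; every adjusted p is limma's. The p-values measure the spread between these libraries, which the design text calls biological replicates. For sums and genes below the filter, exact permutation tests (two-sided) were used. The code was tested on simulated data.

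All genes past the filter are named, with those below it that reached 1 TPM or are partners of named genes. The 56 genes, 39 pairs, 2 pathway lists, 19 marker lists, motifs and tests were chosen with earlier results of these data known. Mitochondrial near copies (12 genes, beside 37 mitochondrially encoded genes) matched at 90% identity or more over at least 80% of their length. Alternatives were pseudocounts of 0.1 and 5, no filter, median-ratio scaling, the rescaled TPM, a replicate block, 1 fit over 12 libraries, both skin libraries numbered 1 left out, and each library left out in turn. Protein sequences were not used here. The values of 1 gene of the set are not reported here; it stays in the fits, counts and sums and is left out of the figures.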

Additional observations from a re-analysis of the deposited data

How the results depend on the processing

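In liver, 13 genes were higher and 4 lower. Pseudocounts, no filter and median-ratio scaling left both counts within 1.5 times. Rescaled TPM gave 22 higher and 0 lower, and turned the sign of Ccl25 (0.50), Ccl27a (0.37, not called), Ccl9 (1.00) and Cxcl12 (0.73). The 1 fit over 12 libraries, which shares the wider skin spread, gave 3 higher and 0 lower. Leaving out each library gave 13 to 14 higher and 3 to 5 lower. In skin, 0 genes were called under every alternative run. For the difference between tissues (0 called), pseudocount 0.1 gave 3, where 127 of all 9255 genes were higher and 49 lower. Median-ratio scaling gave 1 (127 higher and 23 lower of 9513) and rescaled TPM 6 (758 higher and 7 lower of 10800). Both skin libraries numbered 1 left out gave 1 (33 higher and 29 lower of 9255). Leaving out each library gave 0 to 3, with 132 genes higher and 190 lower where it gave 3. The cause was not tested. Replicate numbers did not pair all of the samples. Same-numbered liver libraries deviated with correlations of -0.04, 0.08 and 0.07, and skin libraries with 0.59, 0.09 and 0.35. The best match carried the same number for skin replicates 1 and 3 and liver replicate 2. It did not for skin replicate 2 or liver replicates 1 and 3. Why the skin libraries numbered 1 deviated alike was not tested. The replicate block gave 14 higher and 4 lower in liver, 0 in skin and 5 for the difference between tissues, where 185 of all 9255 genes were higher and 160 lower. Over single liver genes and alternatives, 220 calls were the same, 18 were lost, 5 gained and 4 reversed in sign. TPM keeps no depth, so what depth limits cannot be given.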

Other observations

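Levels in the vehicle groups of both tissues belong to no comparison above. Cxcl12 stood at 5.16 to 21.1 TPM in skin cells and 57.0 to 89.2 TPM in liver, and Cxcl9 at 2.88 to 5.29 TPM and 10.7 to 17.8 TPM. Ccl8 showed the reverse, at 4607 TPM or more in each vehicle skin library and listed at 0 in each vehicle liver library. No receptor reached 1 TPM in a vehicle liver library, while Ccr7 reached 1266 TPM in skin cells. Sorted cells and whole tissue, smart-seq and bulk RNA-seq, and both strains cannot be told apart here.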
